A study of Homo sapiens with 4 samples.

Results

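The 10 genes described here, CYR61, CTGF, ANKRD1, F3, FJX1, CRIM1, NUAK2, PTPN14, ARHGEF17 and TGFB2, are commonly read as outputs of the TEAD–YAP complex. They were taken by gene symbol from the 48162 genes of the deposited table, in which all 10 were found. Each was compared between MDA-MB-231 cells, a human triple-negative breast cancer line, treated for 24 h with the TEAD palmitoylation inhibitor MGH-CP1 and the same cells given vehicle control (DMSO), with 2 RNA-seq libraries in each condition. The dose of MGH-CP1 is 10 µM in the sample labels and 10 mM in the methods of the study. A single cell line was used, and the labels do not say whether the 2 libraries of a condition came from separate cultures, so p-values measure only the spread between these libraries.

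TEAD1 to TEAD4 are transcription factors that bind DNA and switch genes on together with co-activators, of which YAP and TAZ are the best known. The Hippo kinases hold YAP and TAZ in the cytoplasm of crowded or rounded cells, and spreading, stiff matrix or loss of the kinases lets them into the nucleus. Each TEAD protein carries palmitate in a central lipid pocket, the site to which MGH-CP1 binds. The genes such complexes activate encode matrix and growth factors outside the cell, membrane proteins, and kinases, phosphatases and exchange factors inside it. Several of them, such as PTPN14, act back on YAP.

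The TEAD proteins recognise the core letters GGAATG, which read CATTCC on the other strand. Promoter windows from RefSeq (GRCh38.p14), running from 250 bases before to 50 bases after the start of the gene, were matched for 7 members, while CYR61, CRIM1 and ARHGEF17 had no entry. The core was present on either strand in the windows of 5 of the 7, CTGF, ANKRD1, NUAK2, PTPN14 and TGFB2, and in 14.0% of all 35116 windows. CTGF held 3 copies, and 0.128% of all windows held at least that many. ANKRD1 and NUAK2 held 2 copies each, and 1.37% of all windows held at least 2. The AP-1 motif TGANTCA, which often lies near TEAD sites in cancer cells, was present in the windows of ANKRD1 and F3 and in 7.71% of all windows. FJX1 held neither motif. No match overlapped another. These are matches of letters only. Binding was not examined here, and bases outside the windows were not searched. For TGFB2, the bases after the RefSeq start were found in no GENCODE release 29 transcript of the gene, so its window may not be the promoter used here. Those of the other 6 genes were found in a transcript, which does not show that a transcript begins there.

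The stretches below show where these letters lie in the members' promoters. Each runs from 5′ to 3′ on the strand of the gene, and lies wholly before the RefSeq start, with matches to the TEAD core or the AP-1 motif in capitals. CTGF, with 3 TEAD cores, is taken from the minus strand of chr6:131951373-131951622, and ANKRD1, with 2 TEAD cores on either side of an AP-1 match, from the minus strand of chr10:90921088-90921337.
CTGF: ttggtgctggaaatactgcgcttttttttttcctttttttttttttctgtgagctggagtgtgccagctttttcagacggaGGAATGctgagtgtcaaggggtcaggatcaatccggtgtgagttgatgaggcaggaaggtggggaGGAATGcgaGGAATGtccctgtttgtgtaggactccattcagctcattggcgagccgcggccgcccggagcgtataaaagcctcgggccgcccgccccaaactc
ANKRD1: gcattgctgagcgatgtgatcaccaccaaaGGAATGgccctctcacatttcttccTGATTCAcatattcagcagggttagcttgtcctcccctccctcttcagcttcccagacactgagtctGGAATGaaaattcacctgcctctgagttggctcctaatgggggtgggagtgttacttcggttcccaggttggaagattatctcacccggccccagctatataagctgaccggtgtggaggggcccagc

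The next 5 stretches are shorter windows around the matches of 4 further genes. NUAK2, whose second core ends 13 bases before the start, is from the minus strand of chr1:205321909-205321969 and chr1:205321746-205321790. PTPN14 is from the minus strand of chr1:214551769-214551829, TGFB2 from the plus strand of chr1:218345124-218345184, and F3, with AP-1 matches only, from the minus strand of chr1:94541949-94542009.
NUAK2, far site: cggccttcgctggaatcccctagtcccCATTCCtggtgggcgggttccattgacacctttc
NUAK2, near site: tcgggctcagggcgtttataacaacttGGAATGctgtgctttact
PTPN14: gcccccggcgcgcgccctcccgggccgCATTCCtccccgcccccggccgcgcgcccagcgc
TGFB2: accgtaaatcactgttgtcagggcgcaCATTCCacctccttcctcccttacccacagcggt
F3: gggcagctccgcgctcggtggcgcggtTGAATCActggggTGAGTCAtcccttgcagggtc

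**Figure D1:**
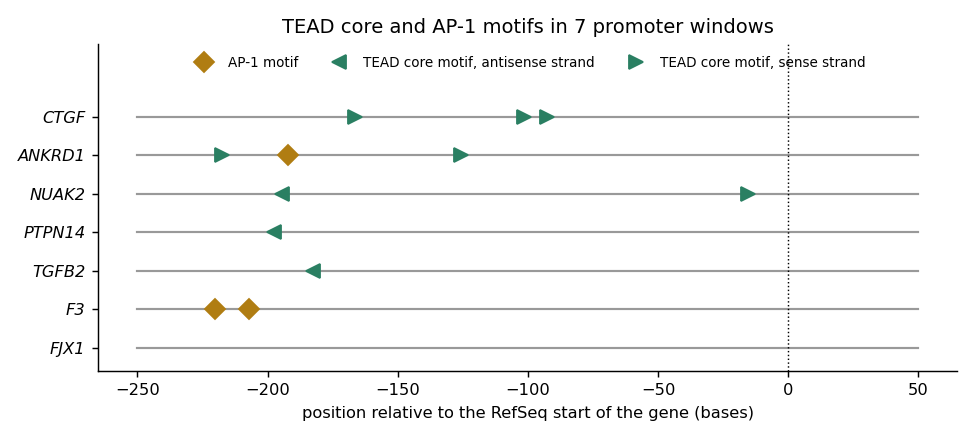
Position of each motif match, in bases from the RefSeq start, in the promoter windows of the 7 genes matched. Triangles are TEAD cores, pointing right on the sense strand and left on the antisense strand, and diamonds are AP-1 matches; CTGF carries 3 cores, ANKRD1 and NUAK2 carry 2 each, and FJX1 carries neither motif.

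Levels are given as deposited, in FPKM (fragments scaled by the length of the gene and by the total of the library). The fragments on genes, recovered from these values, numbered 25455533 and 25508824 with vehicle control and 17997221 and 17577930 with MGH-CP1. The share of fragments on mitochondrially encoded genes was 0.447% and 0.418% with vehicle control against 1.57% and 1.53% with MGH-CP1. Depth and this share thus move with the condition, and their part in the results below was not tested. Under limma voom on the fragments, which models depth, 8 members were called lower and 1 higher, as in the main comparison below. The same counts came with library totals taken without the mitochondrial genes. Over the 12080 genes tested, 3113 were lower and 3480 higher under limma voom, and 2687 and 3431 without the mitochondrial genes. Of the markers of this mesenchymal-like line, VIM had mean levels of 274 and 260 FPKM and CD44 of 202 and 219 FPKM with vehicle and MGH-CP1, and AXL, also a TEAD target, of 283 and 168 FPKM, whereas SPARC was at most 0.117 FPKM in a library. ESR1 and PGR, absent from triple-negative cells, were at most 0.0243 FPKM, and the epithelial CDH1 at most 0.638 FPKM. Of the markers of other cell types, PECAM1 was not found under that symbol and could not be checked. HBB was at 0, and PTPRC, DCN and PDGFRA were at most 0.0321 FPKM. ALB, the liver albumin gene, had 102 fragments in MGH-CP1 replicate 2 against 0, 0 and 3 in the other libraries. Over 13 hepatocyte genes, all but ALB added after its value was seen and without SERPINA1, which had 1040 to 1108 fragments in each library, that library held 284 fragments (0.00162% of its total) against 5, 8 and 16, so the values that follow are also given without it where they matter.

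Of the 10 genes, 8 were called lower after MGH-CP1, 1 was called higher and 1 passed no call (limma on log2(FPKM + 1), two-sided, Benjamini-Hochberg adjusted p under 0.05 over the 12080 genes with a mean of at least 1 FPKM, which all 10 reached). Among all genes tested, 23.8% were called lower and 27.1% higher. The median log2 fold change was -0.64 over the 10 genes and 0.01 over all genes tested. In 8 of the 10 both MGH-CP1 libraries lay below both vehicle control libraries and in 1 they lay above, which was so for 37.4% and 39.8% of all genes tested. The lower calls were the same 8 in each of the 13 other settings that shared the variance between genes, including those that left out a library. They rest on that sharing: with each gene tested on its own spread, none of the 10 passed, with a lowest adjusted p of 0.0631, although 8 had an unadjusted p under 0.05 and lay lower. In that setting 4947 of the 12080 genes tested had an unadjusted p under 0.05, in either direction. With 2 libraries in each condition, the smallest p that an exact permutation test of any member can give is 0.333. In such bulk RNA, a lower level in each cell and fewer cells expressing a gene cannot be told apart.

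**Figure D2:**
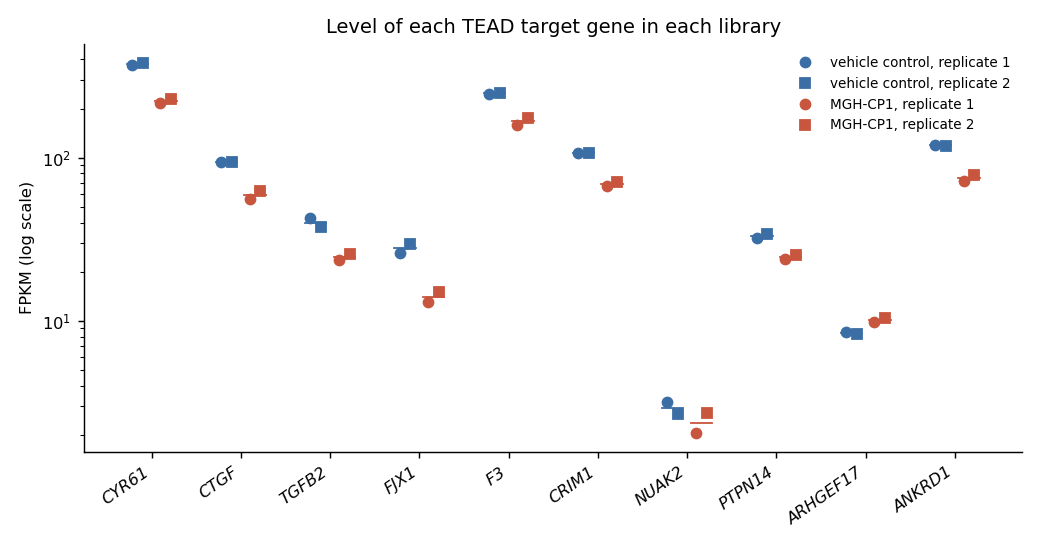
FPKM of each gene in each of the 4 libraries, on a log axis; blue points are vehicle control, red points MGH-CP1, circles replicate 1, squares replicate 2, and short lines the mean of a condition. The red points lie below the blue ones for every gene except NUAK2, where they overlap, and ARHGEF17, where they lie above.

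The secreted products comprise CYR61 and CTGF, which are matricellular proteins of the CCN family that bind integrins, TGFB2, a ligand of the TGF-beta receptors, and FJX1, the human homologue of the Drosophila four-jointed protein. All of them fell. CYR61 (ENSG00000142871, hg19 chr1:86046444-86049645, plus strand) had 368 and 383 FPKM in the vehicle control libraries and 216 and 229 FPKM after MGH-CP1. It was the most abundant of the 10 genes, and only 0.993% of all genes tested had a higher mean FPKM. Its log2 fold change was -0.75 with a 95% interval from -0.87 to -0.64 (adjusted p = 3.29e-05 from limma).

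CTGF (ENSG00000118523, hg19 chr6:132269316-132272513, minus strand), whose promoter held the 3 TEAD cores, had 93.5 and 94.6 FPKM in the vehicle control libraries and 55.9 and 62.6 FPKM after MGH-CP1. Its level fell to 0.630 of the vehicle control mean, beside 0.592 for CYR61. The spread between the MGH-CP1 libraries (SD 4.71 FPKM, n = 2) was wider than that between the vehicle control libraries (SD 0.774 FPKM, n = 2), and the difference between conditions exceeded both (log2 fold change -0.66, adjusted p = 1.02e-04 from limma). An antisense transcript that overlaps CTGF by 428 bases had at most 1 fragment in any library.

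TGFB2 (ENSG00000092969, hg19 chr1:218519577-218617961, plus strand) had 42.4 and 37.4 FPKM with vehicle and 23.7 and 25.8 FPKM with MGH-CP1. The conditions did not overlap, and the log2 fold change was -0.67 with a 95% interval from -0.83 to -0.50 (adjusted p = 2.24e-04 from limma). FJX1 (ENSG00000179431, hg19 chr11:35639735-35642419, plus strand), a gene whose listed length of 2685 bases equals its whole span, had 26.0 and 29.6 FPKM with vehicle and 13.1 and 15.0 FPKM with MGH-CP1. It fell the most of the 10, by 0.93 on the log2 scale with a 95% interval from -1.13 to -0.74 (adjusted p = 9.45e-05 from limma), so that its mean was 49.4% lower. Of all genes tested, 0.522% fell more. Its promoter window was the one with no TEAD core and no AP-1 match.

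F3 and CRIM1 encode proteins of the cell membrane rather than secreted or cytoplasmic ones. F3 is tissue factor, the receptor for coagulation factor VIIa, and CRIM1 is a transmembrane protein with cysteine-rich repeats that binds BMP ligands. F3 (ENSG00000117525, hg19 chr1:94994781-95007356, minus strand) had 246 and 250 FPKM in the vehicle control libraries and 160 and 175 FPKM after MGH-CP1, with a log2 fold change of -0.57 (95% interval -0.69 to -0.44, adjusted p = 1.23e-04 from limma). CRIM1 (ENSG00000150938, hg19 chr2:36583069-36778278, plus strand) had 107.4 and 106.9 FPKM in the vehicle control libraries and 67.1 and 71.1 FPKM after MGH-CP1, with a log2 fold change of -0.63 (95% interval -0.74 to -0.51, adjusted p = 5.64e-05 from limma). Both fell well beyond the spread between replicates, F3 from the second highest level of the 10 genes and CRIM1 from the fourth. A gene on the opposite strand overlaps CRIM1 and had at most 2 fragments in a library.

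The remaining 4 genes act inside the cell, and they split. ANKRD1 encodes an ankyrin repeat protein found in the nucleus and in muscle sarcomeres. ANKRD1 (ENSG00000148677, hg19 chr10:92671853-92681033, minus strand) had 119.3 and 118.7 FPKM in the vehicle control libraries and 72.3 and 78.1 FPKM after MGH-CP1. It fell by 0.66 on the log2 scale (95% interval -0.78 to -0.54, adjusted p = 5.88e-05 from limma), as CTGF did. Both vehicle control libraries lay above both MGH-CP1 libraries.

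PTPN14 is a non-receptor tyrosine phosphatase that binds YAP and restrains it. PTPN14 (ENSG00000152104, hg19 chr1:214530851-214725792, minus strand) had 32.1 and 34.1 FPKM with vehicle and 24.1 and 25.3 FPKM with MGH-CP1. The conditions did not overlap, and its log2 fold change of -0.41 (95% interval -0.54 to -0.28, adjusted p = 7.19e-04 from limma) was the smallest among the 8 genes that fell. Its interval does not meet those of CYR61 and FJX1, and the difference itself was not tested. A transcript on the same strand overlaps PTPN14 by 108 bases and held at most 57 fragments, 1.26% of those on PTPN14 in the same library.

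NUAK2 is an AMPK-related kinase. NUAK2 (ENSG00000163545, hg19 chr1:205271187-205290883, minus strand) was the least abundant member, with 3.16 and 2.67 FPKM in the vehicle control libraries and 2.04 and 2.71 FPKM after MGH-CP1, on 125 to 274 fragments per library. The conditions overlapped, since MGH-CP1 replicate 2 lay above vehicle control replicate 2. The log2 fold change was -0.22 with a 95% interval from -0.51 to 0.07 (adjusted p = 0.183 from limma), an interval that includes no change as well as a fall as large as that of PTPN14. Without MGH-CP1 replicate 2 the log2 fold change was -0.36 (adjusted p = 0.0619 from limma) and without MGH-CP1 replicate 1 it was -0.08. A change was thus not detectable with these libraries. The promoter window of NUAK2 held 2 TEAD cores.

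ARHGEF17, a guanine nucleotide exchange factor, went the other way. ARHGEF17 (ENSG00000110237, hg19 chr11:73019334-73080136, plus strand) had 8.52 and 8.24 FPKM with vehicle and 9.86 and 10.4 FPKM with MGH-CP1. Both MGH-CP1 libraries lay above both vehicle control libraries, and the mean was 1.21 times that of vehicle control (log2 fold change 0.25, 95% interval 0.09 to 0.40, adjusted p = 0.0164 from limma). Among all genes tested, 25.6% rose more. The direction was the same in all 14 alternative settings, with log2 fold changes from 0.20 to 0.28. Settings that change only the filter, the trend, the block or the sharing of variance leave the estimate unchanged, so direction could not change there. The call was lost without vehicle control replicate 2 (adjusted p = 0.0641), without MGH-CP1 replicate 2 (adjusted p = 0.0888), without the filter on low values (adjusted p = 0.0532) and without shared variance (adjusted p = 0.0931), all from limma. An antisense transcript overlapping ARHGEF17 by 1073 bases held at most 27 fragments, 1.88% of those on ARHGEF17; whether counting used the strand is not given in the sources used here.

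**Figure D3:**
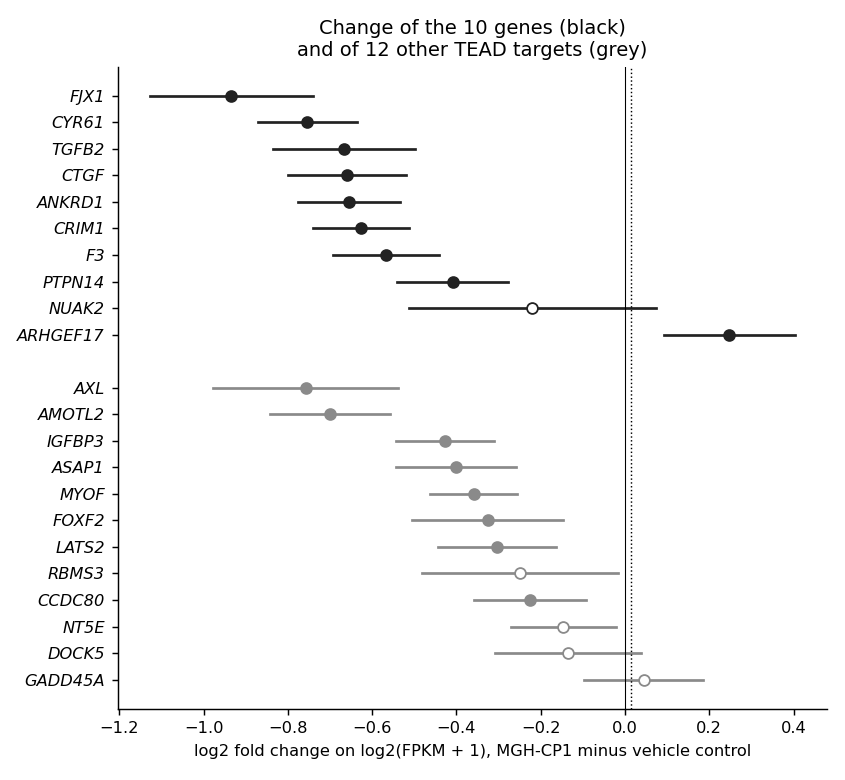
Log2 fold change of each gene with its 95% interval from limma, on the log2(FPKM + 1) scale; filled points have an adjusted p under 0.05 and the dotted line is the median of all genes tested. FJX1 lies lowest of the 10 at -0.93 and ARHGEF17 highest at 0.25, and the 12 other TEAD targets, in grey, run from -0.76 to 0.04.

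By level per length, the order of the 10 genes in the vehicle control libraries was CYR61, F3, ANKRD1, CRIM1, CTGF, TGFB2, PTPN14, FJX1, ARHGEF17 and NUAK2. No neighbours in that order overlapped between libraries. The order of the means was the same after MGH-CP1, where only TGFB2 (24.8 ± 1.47 FPKM, SD, n = 2) and PTPN14 (24.7 ± 0.899 FPKM, SD, n = 2) overlapped. Together the 10 genes took 0.304% and 0.307% of all fragments in the vehicle control libraries and 0.190% and 0.205% after MGH-CP1. CYR61 alone held 27.8% and 28.6% of the fragments of the 10 genes with vehicle and 25.9% and 25.6% with MGH-CP1.

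Against all genes tested, 6 members formed a narrow band. CYR61, TGFB2, CTGF, ANKRD1, CRIM1 and F3 had log2 fold changes from -0.75 to -0.57, and the share of all genes tested that fell more was 4.40% for F3, the least changed of these 6. FJX1 lay beyond this band, and PTPN14, with 9.43% of genes falling more, and NUAK2, with 22.5%, lay short of it. These shares describe positions in a single comparison and are no test.

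**Figure D4:**
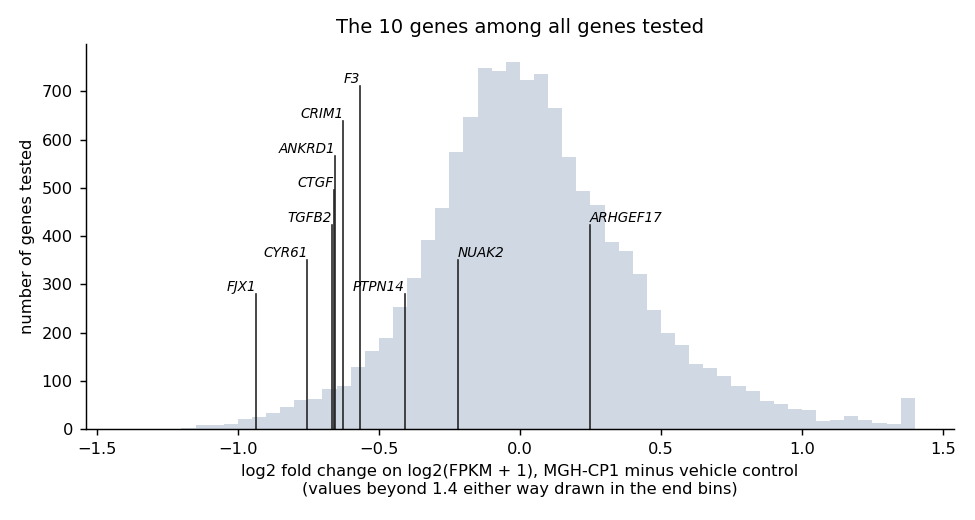
Number of genes tested in each bin of log2 fold change (0.05 wide), with a line at the value of each of the 10 genes; line heights are set only to keep the names apart. CYR61, TGFB2, CTGF, ANKRD1, CRIM1 and F3 stand together in the left flank between -0.75 and -0.57, and ARHGEF17 stands alone to the right of 0.

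The MGH-CP1 libraries differed from each other in the same sense for every member: the FPKM was higher in replicate 2 than in replicate 1 for all 10, by 1.05 times for PTPN14 to 1.33 times for NUAK2. This was so for 49.0% of all genes tested and for 66.6% of the genes called lower. In the vehicle control libraries 5 of the 10 genes were higher in replicate 2. MGH-CP1 replicate 2 also carried the hepatocyte transcripts. Without that library the log2 fold change was -1.03 for FJX1, -0.80 for CYR61, -0.74 for CTGF and -0.71 for ANKRD1. It was further below 0 than with all libraries for each of the 8 genes called lower. Without MGH-CP1 replicate 1 it was closer to 0, at -0.84 for FJX1, -0.71 for CYR61, -0.58 for CTGF and -0.60 for ANKRD1. Both shifts are fixed by the order of the replicates, and any part of the hepatocyte transcripts in them was not tested.

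**Figure D5:**
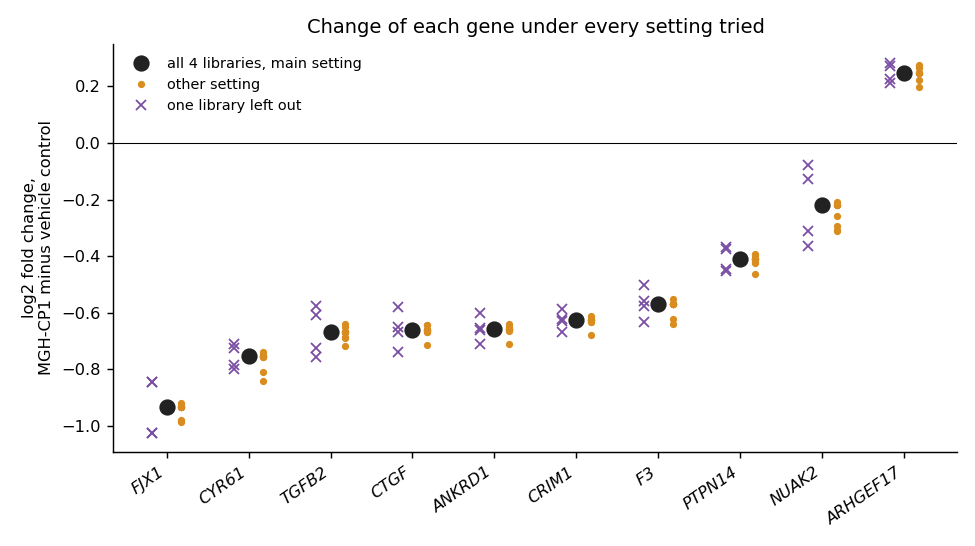
Log2 fold change of each gene with all 4 libraries (black), with a library left out (purple crosses) and under the other settings (orange points). The points of each gene stay on one side of 0, and those of NUAK2 spread from -0.36 to -0.08.

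A further 12 genes, the rest of a widely used list of YAP/TAZ targets written from general knowledge, were set beside the members. Of these, 8 were called lower and 0 higher (limma, adjusted p under 0.05), beside 23.8% and 27.1% of all genes tested. Their median log2 fold change was -0.31. None was higher at an unadjusted p under 0.05 either, a threshold that 6911 of all 12080 genes tested passed in either direction. AXL, a receptor tyrosine kinase, had a log2 fold change of -0.76 (adjusted p = 4.25e-04 from limma) and AMOTL2, an angiomotin that binds YAP, of -0.70 (adjusted p = 8.95e-05 from limma), close to those of CYR61 and CTGF. The falls of IGFBP3, ASAP1, MYOF, FOXF2, LATS2 and CCDC80 were smaller, from -0.43 to -0.23. RBMS3 (-0.25), NT5E (-0.15), DOCK5 (-0.14) and GADD45A (0.04) did not pass. Under limma voom on the fragments all of the 12 except GADD45A were called lower, with RBMS3 (adjusted p = 0.00496), NT5E (adjusted p = 0.0123) and DOCK5 (adjusted p = 0.0448) gained. RBMS3 and NT5E also passed with median-ratio scaling and with quantile normalization, under which 10 were lower. NT5E passed among genes with a mean of at least 5 FPKM. Over all 12080 genes tested, 2869 were called lower in the main comparison. That number was 3113 under limma voom, 3481 with median-ratio scaling and 3221 with quantile normalization. It was 2564 of the 8439 genes with a mean of at least 5 FPKM. With a library left out, the estimates moved. Without MGH-CP1 replicate 2 the log2 fold changes of FOXF2 (-0.26) and CCDC80 (-0.20) were smaller falls than with all libraries. Without vehicle control replicate 2 that of CCDC80 (-0.19) was a smaller fall, and those of NT5E (-0.21) and RBMS3 (-0.35) were larger falls.

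Close family relatives of the members did not all move with them. Every call of a relative in the main comparison was lost without variance shared between genes (adjusted p from 0.0531 to 0.142 from limma). In the CCN family, NOV had 3.86 and 3.85 FPKM with vehicle and 4.30 and 3.65 FPKM with MGH-CP1, and the conditions overlapped (log2 fold change 0.03, 95% interval -0.19 to 0.25), while WISP1, WISP2 and WISP3 were under 0.2 FPKM in every library. Whether CYR61 and NOV differ in their change was not tested. Next to TGFB2, TGFB1 rose from 59.1 ± 1.26 to 67.9 ± 3.28 FPKM (SD, n = 2; adjusted p = 0.0154 from limma), a call lost without MGH-CP1 replicate 1 (adjusted p = 0.111), without the variance trend (adjusted p = 0.0545) and without the filter (adjusted p = 0.0732), while TGFB3 had a log2 fold change of 0.29 that did not pass (adjusted p = 0.0781 from limma). TGFB3 passed without the variance trend (adjusted p = 0.0308), and its log2 fold change ranged from 0.13 with quantile normalization to 0.49 under limma voom. PTPN21, the nearest relative of PTPN14, had a log2 fold change of -0.24 (adjusted p = 0.0182 from limma), a call lost without either vehicle control library, without MGH-CP1 replicate 1 and without the filter (adjusted p from 0.0509 to 0.0973).

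NUAK1, at 11.6 ± 0.0781 FPKM with vehicle and 9.98 ± 0.515 FPKM with MGH-CP1 (SD, n = 2), had a log2 fold change of -0.19 (adjusted p = 0.0391 from limma), a call lost with any single library left out, with library totals without the mitochondrial genes (adjusted p = 0.0520), without the variance trend (adjusted p = 0.0526) and without the filter (adjusted p = 0.0893). Among the exchange factors related to ARHGEF17, ARHGEF10 fell by 0.52 (adjusted p = 3.00e-04 from limma), whereas ARHGEF10L rose by 0.43 (adjusted p = 0.00273 from limma). ANKRD2 and ANKRD23 were under 0.2 FPKM in every library.

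The mRNAs of the TEAD factors and of their co-activators YAP and TAZ changed unevenly. TEAD4 fell by 0.59 on the log2 scale (adjusted p = 5.01e-04 from limma) and TEAD1 by 0.22 (adjusted p = 0.00763 from limma), while WWTR1, which encodes TAZ, rose by 0.57 (adjusted p = 9.08e-05 from limma). Without variance shared between genes the calls of TEAD4 (adjusted p = 0.0954), TEAD1 (adjusted p = 0.0743) and WWTR1 (adjusted p = 0.0590) from limma were lost. YAP1 (-0.10), TEAD2 (0.20) and TEAD3 (0.07) did not pass in the main comparison. TEAD2 passed without vehicle control replicate 1 (log2 fold change 0.35, adjusted p = 0.0165 from limma) and with the replicate block (adjusted p = 0.0433), and YAP1 passed as lower with median-ratio scaling (log2 fold change -0.16, adjusted p = 0.0317 from limma).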

How the data were processed

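Poly-T selected RNA was sequenced by the study as 150 bp paired-end reads. The submitters' processing notes name CASAVA 1.8, STAR and hg19; the counting tool and its strand setting are not given in the sources used here. For 48162 genes the table deposited by the authors holds FPKM beside symbol, position and listed length; columns of other samples numbered 0. FPKM multiplied by length came in whole multiples of a single step for 100% of values above 0 (within 0.01), which gave fragment numbers.

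Here, log2(FPKM + 1) of the 12080 genes with a mean of at least 1 FPKM over the 4 libraries was compared with limma 3.58.1 in R 4.3.3 (variance trend, 5.97 prior degrees of freedom, two-sided, Benjamini-Hochberg adjustment over all genes, threshold 0.05). On this scale fold changes of lowly expressed genes are understated. The script was also run on simulated data in which few genes changed and all varied alike, so that run gives no error rate for these data. A count model was not the main test because the deposited unit is FPKM; limma voom on recovered fragments was an alternative. The others were a pseudocount of 0.1, no filter or at least 5 FPKM, other scalings, no trend, the replicate number as a block, each library left out, and, chosen after seeing the data, no sharing of variance. All 10 members are named, and genes of the other lists where they were called or a count needed them. The members and lists were chosen with earlier results of these data known. The hepatocyte genes other than ALB were added after values were seen. Promoter sequences are RefSeq's, on GRCh38.p14, and were matched by symbol or, for CTGF, by an older symbol; gene positions are those of the deposited table.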

Additional observations from a re-analysis of the deposited data

How the results depend on the processing

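No member changed direction under any of the 14 alternatives in which it was tested. Those that change only the filter, the variance trend, the replicate block or the sharing of variance leave each estimate unchanged. Direction could not change in them. NUAK2 was tested in 13, as it fell under the filter of at least 5 FPKM. In all, 127 of 139 combinations of a member and an alternative kept their side of the threshold. Of these, 13 were NUAK2 staying without a call. The alternatives use the same libraries and are not independent checks. Without variance shared between genes, 0 members were called lower, 0 higher and 0 of the 12 other targets lower (8, 1 and 7 at an unadjusted p under 0.05), and over all genes 9 were higher and 4 lower against 3273 and 2869. An unadjusted p under 0.05 was reached there by 4947 of the 12080 genes, in either direction. Without the filter on low values 24878 genes were tested, against 12080 with it. In that setting 0 members were called higher (1 at an unadjusted p under 0.05), and 1844 of the 24878 genes were lower and 2280 higher. Of these 24878 genes, 7950 had an unadjusted p under 0.05, in either direction. With limma voom 11 of the other targets were lower, beside 3113 of all 12080 genes tested. The log2 fold change of GADD45A changed sign with median-ratio scaling (-0.0091) and with a library left out (from -0.014 to 0.102), and that of NOV with median-ratio scaling (-0.0125), quantile normalization (-0.0654) and a library left out (from -0.0621 to 0.124); the cause was not tested. The replicate numbers do not pair the libraries by any label, and the deviations of same-numbered libraries correlated at 0.0777 over genes tested. With the replicate block 8 members were lower, 1 higher and 9 of the other targets lower, NT5E being gained. TEAD2, which is not one of these targets, passed as higher with the block. Over all genes, 3052 were lower and 3466 higher with the block. NUAK2 rests on the fewest fragments of the members, 125 to 274 per library; whether depth limits its call was not tested.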

Other observations

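Beyond the members, the TEAD core was set beside the change of all genes whose symbol matched a promoter window. Of 8492 genes tested with a window, 920 held the core on either strand; 27.8% of these were called lower after MGH-CP1, against 25.0% of the genes without it (limma, adjusted p under 0.05). The median log2 fold change was -0.02 with the core and 0.00254 without it. Genes are not independent replicates, so these values are given as a description with no test.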
